A study of Mus musculus with 45 samples.

Results

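The homeobox genes Dbx1, Lhx3, Lhx4, Isl1, Isl2 and Mnx1, best known from the developing spinal cord and brainstem, were followed through the conversion of mouse fibroblasts into muscle cells. They are 6 of the 35675 genes in the data. Dbx1 and Lhx3 were chosen because their transcripts appear on day 10 of MyoD with F/R/C and not on day 10 of MyoD alone. The other 4 were chosen by name as related motor neuron and interneuron factors. The day 10 levels of Dbx1 and Lhx3 are therefore descriptions, and no member was tested in that comparison.

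RNA was measured by bulk RNA-seq in 45 libraries, 3 in each of 15 groups, all of the genotype Tg:Pax7-nGFP/C57BL6;DBA2 (GFP in the nuclei of cells that express Pax7, a regulator of muscle stem cells). Mouse embryonic fibroblasts (MEFs) that also carried a doxycycline (Dox)-inducible MyoD, the muscle-determining transcription factor, were untreated or were given Dox for 2, 4, 6, 8 or 10 days. Dox was given either alone, which the study uses to make multinucleated myotubes, or with the small molecules called F/R/C in the labels, which it uses to make induced myogenic progenitor cells (iMPCs). The remaining 4 groups were bulk iMPCs (established Dox-independent cells kept in F/R/C medium after 13 days of Dox and F/R/C), iMPCs sorted for Pax7-GFP, bulk primary myoblasts from skeletal muscle, and myoblasts sorted for Pax7-GFP. MyoD comes from a transgene in the MEF-derived groups, and every group labelled as MyoD with F/R/C is described as a mixture of muscle fibers and progenitor cells. Totals were 15.6 to 36.3 M reads a library, and the 3 bulk iMPC libraries were among the deepest at 33.2 to 36.3 M. The labels do not say whether the 3 libraries of a group came from separate cultures or animals, and p-values measure only the spread between these libraries, part of which may be technical. In every group 2 of the libraries agree in having or lacking Xist and the other differs, so a group is not 3 repeats of 1 sample.

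The 6 genes encode transcription factors that bind DNA through a homeodomain. In the embryonic spinal cord, Dbx1 marks progenitors of ventral interneurons. Lhx3, Lhx4, Isl1 and Isl2 are LIM-homeodomain proteins whose LIM domains bind the adaptor Ldb1, and the pairing of Isl1 with Lhx3 through Ldb1 directs motor neuron fate. Mnx1 (also called Hb9) is a motor neuron factor that acts with them. The same proteins work elsewhere too: Lhx3 and Lhx4 in the pituitary, Isl1 in pancreatic islets and in the progenitors of the heart and of some head muscles, and Mnx1 in the pancreas.

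Dbx1, Lhx3, Isl1 and Isl2 (4 of the 6 genes) had enough reads to be tested, while Lhx4 and Mnx1 did not. With F/R/C, 3 of the 4 (Dbx1, Lhx3 and Isl1) were higher on day 8 than with MyoD alone, and 1 (Isl1) was already higher on day 6. Dbx1 and Lhx3 were chosen for high levels late in F/R/C and passed the filter through those groups and the iMPCs. Counts over the 4 therefore do not measure how often genes of this kind change. The p-values of Dbx1 and Lhx3 are likewise not independent of that choice. A gene was called where edgeR's Benjamini-Hochberg adjusted p was under 0.05 and the change at least 2-fold; on day 8, 9.20% of the 17325 genes tested were called higher with F/R/C, and on day 6, 8.23%. On day 2 and day 4 neither Isl1 nor Isl2 was called in edgeR's test, where 4.93% and 13.2% of all genes were called in either direction; Dbx1 and Lhx3 had at most 1 read there and could not be called. The unadjusted p was under 0.05 for 1 gene (Isl1) on day 2 and for 2 (Isl1 and Isl2) on day 4, and DESeq2 called 0 on both days. On day 10, the comparison that chose Dbx1 and Lhx3, 9.91% of all genes were called higher with F/R/C. The 3 genes then took different courses: Dbx1 and Isl1 were present in bulk and in sorted iMPCs, while Lhx3 had only 4 reads in bulk iMPCs and a mean of 0.788 CPM in sorted ones.

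**Figure D1:**
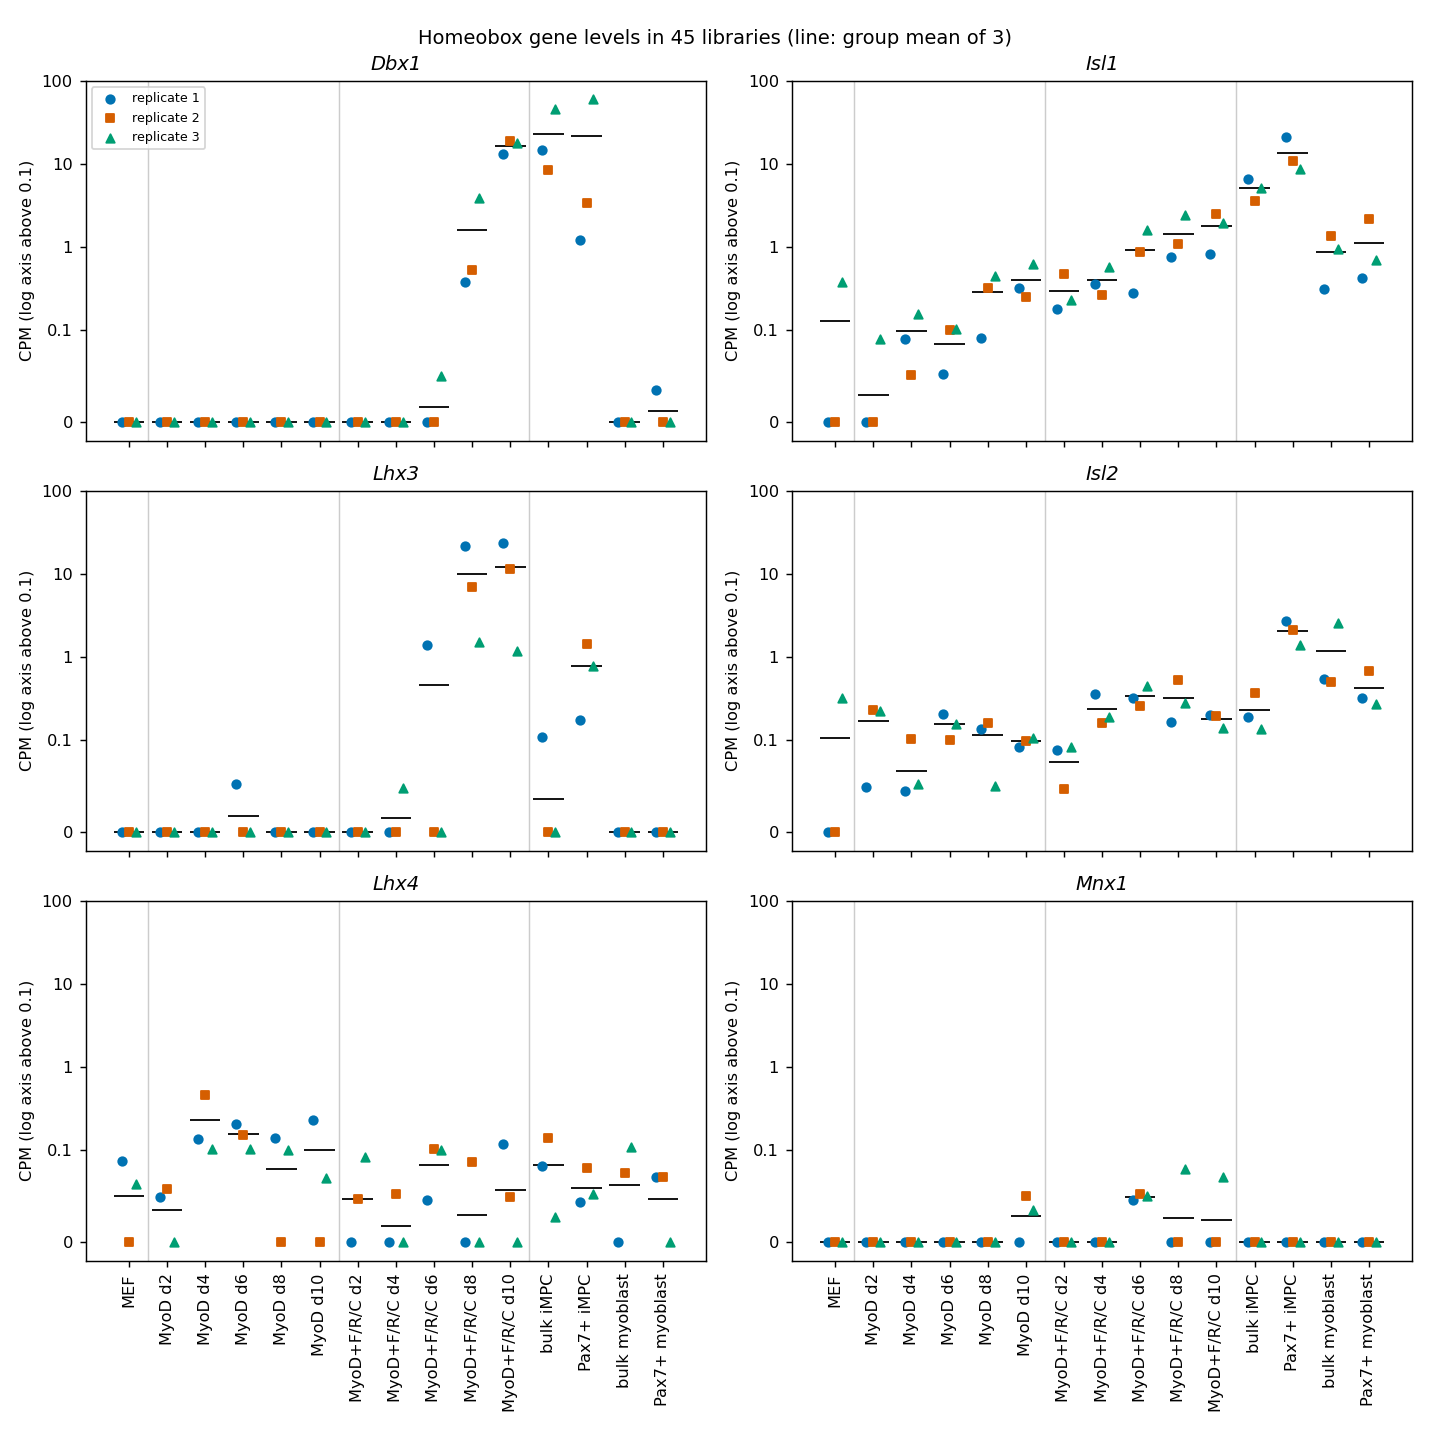
Level (CPM, reads scaled to library size) of each of the 6 genes in all 45 libraries, by group; points are libraries, coloured by replicate number, and the line is the group mean of 3. The axis is logarithmic above 0.1 CPM. Dbx1 and Lhx3 lie at 0 in MEFs and, apart from 1 Lhx3 read on day 6, in MyoD alone, Isl1 peaks in Pax7-positive iMPCs, and Lhx4 and Mnx1 stay under 0.5 CPM throughout.

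Dbx1 (chr7:49631499-49636849 in GRCm38, minus strand) has a single annotated transcript of 4 exons, so its reads could not be divided with another isoform. It had 5181 reads in all, found in 14 of the 45 libraries. MEFs, bulk myoblasts and all 15 libraries of MyoD alone had 0 reads. With F/R/C it had 0 reads on days 2 and 4 and 1 read in 1 library on day 6. On day 8 replicates 1, 2 and 3 held 7, 12 and 100 reads, or 0.380, 0.524 and 3.94 CPM. On day 10 they held 335, 389 and 504 reads, or 13.3, 18.9 and 17.8 CPM. No library of day 8 reached the lowest of day 10, and replicate 3 stood apart from the other two on day 8 but not on day 10. Since these are bulk cultures, a rise in the share of cells with the transcript and a rise per cell cannot be told apart.

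The day 8 mean of 1.61 ± 2.01 CPM (SD, n = 3) was at least 10.8-fold higher than with MyoD alone, where the limit is the level of 3 reads in each library (edgeR adjusted p = 0.0157). Against MEFs it was at least 10.5-fold higher (adjusted p = 0.0103), and against day 2 of the same treatment at least 11.7-fold higher (adjusted p = 0.0272). Dbx1 was chosen for its day 10 level and passed the count filter through groups where it is high, so these p-values are no independent support. All 3 calls and bounds rest on replicate 3 of day 8: without it the mean was 0.452 CPM, the bounds were 3.04-fold, 2.94-fold and 3.29-fold, and the adjusted p was 0.0829, 0.0617 and 0.161. The call against day 2 was also lost without any single library of day 2 (0.0699 to 0.0871). DESeq2 put the adjusted p at 0.0502 against MyoD alone. On day 10 the level with F/R/C, 16.7 ± 2.97 CPM (SD, n = 3), was at least 127.7-fold above the limit in MyoD alone; that comparison chose the gene and was not tested.

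In bulk iMPCs, replicates 1, 2 and 3 held 543, 297 and 1712 Dbx1 reads, or 14.9, 8.37 and 46.03 CPM, and every one of them was above every MEF and bulk myoblast library. The mean of 23.1 ± 20.1 CPM (SD, n = 3) was at least 150.1-fold above MEFs (adjusted p = 0.000295) and at least 217.2-fold above bulk myoblasts (adjusted p = 0.000542). Without replicate 3 the mean was 11.6 CPM and the bounds were 75.5-fold and 109.3-fold. Sorted Pax7-positive iMPCs held 28, 85 and 1167 reads, or 1.21, 3.43 and 60.3 CPM, the widest spread of the gene in any group (SD 33.5 CPM). Their sorted counterparts from muscle had 1 read in 1 of 3 libraries; the ratio of summed reads per library size was 1430 (95% counting interval 256 to 56529, adjusted p = 0.000402). Without replicate 3 of the sorted iMPCs the fitted log2 fold change was 7.03 in place of 10.2, and the call held (adjusted p = 0.000919). Without replicate 1 of the sorted myoblasts, which held that 1 read, it was 12.0 (adjusted p = 0.00351). Sorted and bulk iMPCs overlapped, with sorted minus bulk at -0.09 on the log2 scale (SE 1.08; adjusted p = 0.954). Without replicate 3 of the sorted iMPCs this value was -3.26 (adjusted p = 0.0168), so the comparison turns on that library. In the order of group means, bulk iMPCs, Pax7-positive iMPCs and day 10 with F/R/C came first and overlapped one another, followed by day 8 with F/R/C.

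The region around the start of Dbx1 is shown with those of Lhx3 because both genes go from no reads to clear signal in the same cultures. Each sequence runs 250 bases before to 50 bases after an annotated start (RefSeq, GRCm38.p6), 5′ to 3′ on the gene's strand. Capitals mark matches to CANNTG on either strand, the E-box, which is the core motif of MyoD and other basic helix-loop-helix factors. The windows are chr7:49636786-49637085 for Dbx1, and chr2:26208200-26208499 and chr2:26206526-26206825 for the 2 starts of Lhx3, all on the minus strand.
Dbx1: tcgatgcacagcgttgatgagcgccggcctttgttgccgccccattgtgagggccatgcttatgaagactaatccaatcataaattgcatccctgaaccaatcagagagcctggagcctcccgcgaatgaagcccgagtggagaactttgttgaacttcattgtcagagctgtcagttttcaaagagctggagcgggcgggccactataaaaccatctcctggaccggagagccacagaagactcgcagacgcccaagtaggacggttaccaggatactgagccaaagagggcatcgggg
Lhx3 start 1: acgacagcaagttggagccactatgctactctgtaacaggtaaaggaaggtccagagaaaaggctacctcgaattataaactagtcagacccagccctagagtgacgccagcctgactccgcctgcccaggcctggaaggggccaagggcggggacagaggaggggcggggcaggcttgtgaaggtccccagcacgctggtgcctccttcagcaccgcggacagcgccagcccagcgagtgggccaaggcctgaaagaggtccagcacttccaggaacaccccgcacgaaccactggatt
Lhx3 start 2: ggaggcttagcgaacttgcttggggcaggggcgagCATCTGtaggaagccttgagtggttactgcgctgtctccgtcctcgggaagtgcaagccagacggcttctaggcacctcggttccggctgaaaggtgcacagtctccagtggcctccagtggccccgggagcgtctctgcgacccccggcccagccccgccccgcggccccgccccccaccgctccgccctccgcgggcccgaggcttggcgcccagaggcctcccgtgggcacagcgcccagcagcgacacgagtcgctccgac
The Dbx1 window and the window of the first Lhx3 start hold no CANNTG, and that of the second Lhx3 start holds 1. Of 32851 mouse promoter windows of the same length in the table, 72.3% hold at least 1. TAATTA, a core sequence bound by many homeodomains, is in none of the 3 windows and in 5.29% of all. A match is only a match of letters, and its absence here says nothing of sites outside the 300 bases.

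Lhx3 (chr2:26200212-26208289, minus strand) appeared with F/R/C in the same days as Dbx1, but with its highest values in other replicates. MEFs, both myoblast groups and MyoD alone had no reads, apart from 1 read on day 6. With F/R/C it had 1 read on day 4 and then 30 reads on day 6, all of them in replicate 1. On day 8 replicates 1, 2 and 3 held 400, 161 and 38 reads, or 21.7, 7.03 and 1.50 CPM. On day 10 they held 598, 234 and 33 reads, or 23.8, 11.4 and 1.17 CPM. Days 8 and 10 overlapped almost completely, so Lhx3 showed no step between them of the kind seen for Dbx1.

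The day 8 mean of 10.1 ± 10.5 CPM (SD, n = 3) was at least 67.8-fold higher than with MyoD alone (adjusted p = 0.00202), at least 65.6-fold higher than in MEFs (adjusted p = 0.000989) and at least 73.3-fold higher than on day 2 (adjusted p = 0.00484). In edgeR these calls did not depend on any single library, but the bounds did: without replicate 1 of day 8 the mean was 4.26 CPM and they were 28.6-fold, 27.7-fold and 31.0-fold. DESeq2 gave adjusted p = 0.0502 against MyoD alone and 0.0773 against day 2. On day 10 the level of 12.1 ± 11.3 CPM (SD, n = 3) lay at least 92.7-fold above the limit in MyoD alone, or 48.05-fold without replicate 1, in the comparison that chose the gene.

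In established bulk iMPCs only 4 Lhx3 reads were found, all in replicate 1, and the difference from MEFs was not called (adjusted p = 0.477). Sorted Pax7-positive iMPCs had 4, 35 and 15 reads, or 0.173, 1.41 and 0.775 CPM, and all 3 lay above all bulk iMPC libraries and above sorted myoblasts, which had none. Against sorted myoblasts the level was at least 6.30-fold higher (adjusted p = 0.0216; DESeq2 0.187), or 3.80-fold without replicate 2. Against bulk iMPCs Lhx3 was 4.24 higher on the log2 scale (SE 1.66; adjusted p = 0.0432; DESeq2 0.383). The first of these calls was lost without replicate 2 of the sorted iMPCs (adjusted p = 0.0639) or without replicate 1 (0.0571) or 2 (0.0581) of the sorted myoblasts. The second was lost without replicate 2 (0.133) or 3 (0.0661) of the sorted iMPCs, or without replicate 2 (0.116) or 3 (0.115) of the bulk iMPCs. The 6 sorted libraries were also quantified with another fragment-length setting than the rest, so in a comparison of sorted with bulk cells sorting and that setting cannot be told apart. By group mean, days 10 and 8 with F/R/C came first and overlapped; Pax7-positive iMPCs and day 6 with F/R/C followed.

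Most Lhx3 reads were assigned to a transcript that is not coding. Lhx3-203, annotated as a retained intron with 3 exons, took 70.8% of the gene's estimated reads, against 15.4% for the coding Lhx3-201 and 13.4% for the coding Lhx3-202. Its share was 79.9% on day 8 and 65.9% on day 10 with F/R/C. Lhx3-203 is 1982 bases long and shares 1617 of them with the 2 coding transcripts. Only 365 bases, chr2:26202502-26202866, are its own. Because reads in the shared part are divided between transcripts by estimation, the share of each transcript is uncertain, while the gene total is not: Lhx3 counts were whole in every library. An antisense gene, Gm27196, overlaps the start of Lhx3 on the other strand and had 3 reads on day 8 and 7 reads on day 10 with F/R/C and none in the other groups.

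**Figure D2:**
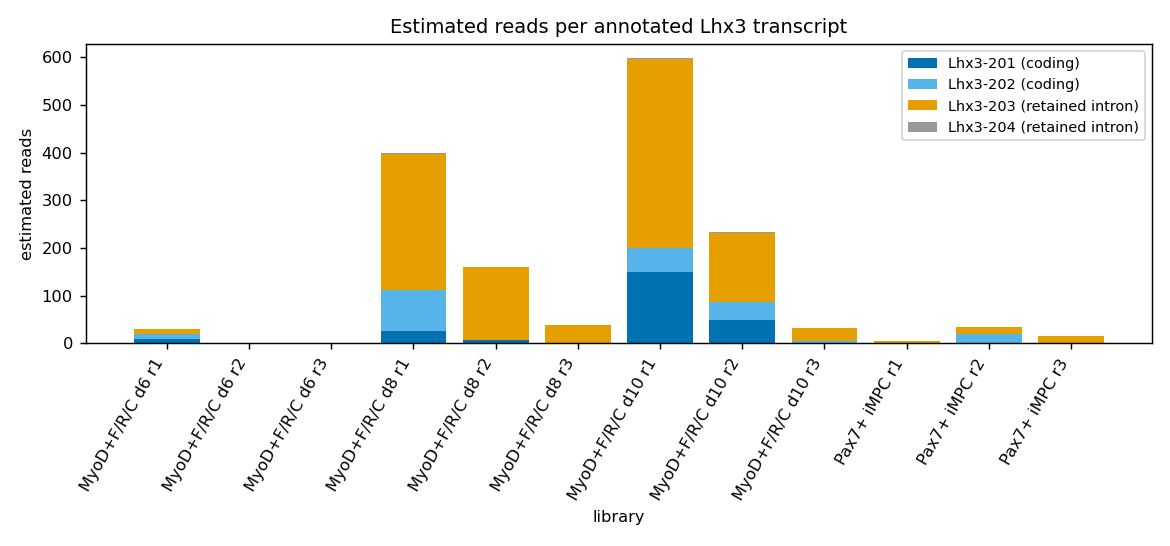
Estimated reads of each annotated Lhx3 transcript (stacked colours) in the 12 libraries of days 6, 8 and 10 with F/R/C and of Pax7-positive iMPCs (x axis, with r for replicate). Bulk iMPCs and earlier days are not shown. Replicate 1 holds the most Lhx3 reads on days 6, 8 and 10, and Lhx3-203, the transcript with a retained intron, is the largest part of the tall bars.

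The replicate numbers thus ordered Dbx1 and Lhx3 in different ways. Lhx3 was highest in replicate 1 and lowest in replicate 3 on days 8 and 10, whereas Dbx1 was highest in replicate 3 on day 8, in bulk iMPCs and in Pax7-positive iMPCs. On day 10 Dbx1 was highest in replicate 2 by CPM, and in sorted iMPCs Lhx3 was highest in replicate 2. In the time course and the iMPCs, replicate 3 carries Y-linked transcripts with at most 0.414 CPM of Xist and replicates 1 and 2 carry Xist. The part of this difference in the spread of Dbx1 and Lhx3 was not tested.

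**Figure D3:**
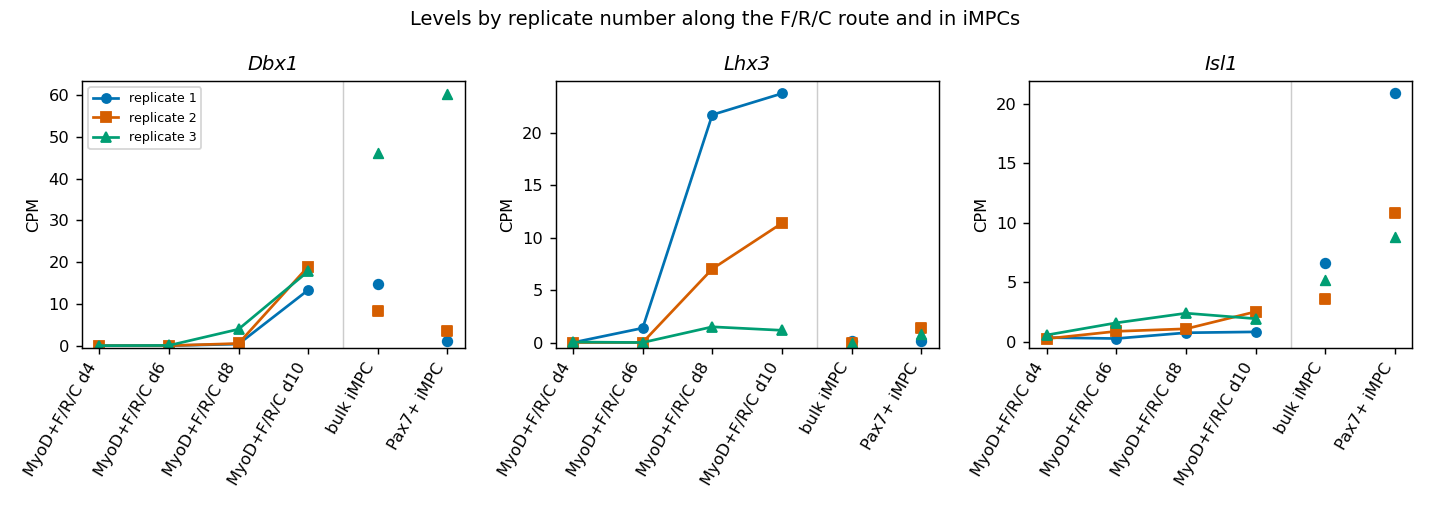
CPM of Dbx1, Lhx3 and Isl1 by replicate number on days 4 to 10 of MyoD with F/R/C (lines) and in the bulk and sorted iMPC groups (points). On days 8 and 10 Lhx3 is highest in replicate 1 and lowest in replicate 3 (23.8 and 1.17 CPM on day 10), while the highest Dbx1 values, 46.03 and 60.3 CPM, are in replicate 3 of the 2 iMPC groups.

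Lhx4 (chr1:155698031-155751684, minus strand), the closest relative of Lhx3, never exceeded 9 reads in a library and failed the filter on low counts. Its group means ran from 0.0176 to 0.232 CPM, mostly near or below the level of 3 reads. On day 4 the 3 libraries of MyoD alone held 3, 9 and 2 reads and those with F/R/C 0, 1 and 0, which do not overlap. The ratio of summed reads per library size, F/R/C over MyoD alone, was 0.0700 (95% counting interval 0.00166 to 0.460, chosen after the values were seen). With no count filter edgeR gave a log2 change of -3.41 (SE 1.27; unadjusted p = 0.0107, adjusted p = 0.0795), which did not pass. Lhx4 was called in none of the 11 comparisons fitted in that way, and this was the 1 with an unadjusted p under 0.05. No library of day 8 or 10 with F/R/C, where Lhx3 was high, held more than 3 Lhx4 reads.

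Isl1 (chr13:116298281-116309689, minus strand), the LIM partner of Lhx3 in motor neurons, had reads in all 15 groups and in 41 of the 45 libraries. With MyoD alone the group means stayed between 0.0300 and 0.400 CPM from day 2 to day 10. With F/R/C they were, in CPM, 0.293 on day 2, 0.397 on day 4, 0.917 on day 6, 1.42 on day 8 and 1.77 on day 10. On each of the 5 days the lowest library with F/R/C lay above the highest with MyoD alone. The share of all genes that separate in this way was not counted, so this is only a description. Replicates 1, 2 and 3 held 6, 17 and 32 reads on day 6 with F/R/C, against 1, 2 and 2 with MyoD alone. On day 8 they held 14, 25 and 61 reads, against 2, 6 and 9.

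The log2 fold change of Isl1 was 3.34 on day 6 (SE 0.94, adjusted p = 0.00846) and 2.31 on day 8 (SE 0.79, adjusted p = 0.0244). On day 2 it was 2.96 (SE 1.15, adjusted p = 0.112) and on day 4 1.96 (SE 0.95, adjusted p = 0.136), neither of which passed. Day 10, not tested, gave 2.10. The day 6 call was lost without replicate 3 of F/R/C (adjusted p = 0.0591). The day 8 call was lost without replicate 3 of F/R/C (0.119) or without replicate 1 (0.104) or 2 (0.0555) of MyoD alone. From day 2 to day 8 with F/R/C Isl1 rose by 2.27 on the log2 scale (SE 0.79; adjusted p = 0.0441), and here 3 of the 4 tested genes (Dbx1, Lhx3 and Isl1) were called higher, against 7.69% of all genes. That Isl1 call was lost without any one of 5 of the 6 libraries, with adjusted p from 0.0616 to 0.227.

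Among MEF libraries only replicate 3 held Isl1 reads, 6 of them. On day 8 with F/R/C, Isl1 was higher than in MEFs by 3.65 on the log2 scale (SE 0.90; adjusted p = 0.00123), or 8.07 without that library and 3.05 without MEF replicate 1. The same 3 genes of 4 were called higher in this comparison, as were 18.4% of all genes. With MyoD alone on day 8 against MEFs, Dbx1 and Lhx3 had 0 reads in both groups and could not be called. Neither Isl1 nor Isl2 was called in edgeR's test, where 20.8% of all genes were called in either direction. Neither had an unadjusted p under 0.05, DESeq2 called 0, and Isl1 gave 1.35 (SE 0.98, adjusted p = 0.308). Without replicate 3 of the MEFs, however, Isl1 (5.72, adjusted p = 0.0119) and Isl2 (4.45, adjusted p = 0.0287) were both called.

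Isl1 was highest in sorted Pax7-positive iMPCs, with 482, 268 and 170 reads, or 20.9, 10.8 and 8.79 CPM. Bulk iMPCs came next with 242, 127 and 192 reads, or 6.62, 3.58 and 5.16 CPM, all below the sorted libraries. Sorted myoblasts held 12, 62 and 13 reads, with a mean of 1.11 ± 0.948 CPM (SD, n = 3), and bulk myoblasts 7, 54 and 26 reads, with a mean of 0.871 ± 0.523 CPM. In CPM these libraries overlap each other and those of days 6 to 10 with F/R/C. Bulk iMPCs were higher than MEFs by 5.49 on the log2 scale (SE 0.92; adjusted p = 8.41e-06), in a comparison where 2 of the 4 tested genes (Dbx1 and Isl1) and 19.2% of all genes were called higher. The value was 9.92 without MEF replicate 3 and 4.90 without MEF replicate 1. Bulk iMPCs were also higher than bulk myoblasts, by 2.53 (SE 0.72, adjusted p = 0.00728), which missed the threshold when only these 2 groups were fitted (adjusted p = 0.0501). Sorted iMPCs were higher than sorted myoblasts by 3.59 (SE 0.75, adjusted p = 0.000206), or 4.63 without replicate 2 of the sorted myoblasts. Between sorted and bulk iMPCs the difference of 1.40 (SE 0.68, adjusted p = 0.0883) did not pass.

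The start of Isl1 (chr13:116309639-116309938, minus strand; RefSeq, GRCm38.p6) is shown because Isl1, unlike Dbx1 and Lhx3, has reads in every group. Capitals mark the single CANNTG match.
Isl1: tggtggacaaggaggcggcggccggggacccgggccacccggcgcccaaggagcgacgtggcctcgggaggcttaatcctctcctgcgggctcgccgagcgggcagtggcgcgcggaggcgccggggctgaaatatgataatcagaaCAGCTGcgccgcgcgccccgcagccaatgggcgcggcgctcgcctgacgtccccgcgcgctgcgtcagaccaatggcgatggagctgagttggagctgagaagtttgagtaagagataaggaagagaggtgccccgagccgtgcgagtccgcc
That match reads CAGCTG, a form of the E-box found in 16.3% of all promoter windows. Of the windows of the other 3 genes, those of Lhx4 and Isl2 hold no CANNTG and that of Mnx1 holds 3. TAATTA is in none of the 7 windows of the 6 genes.

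Isl2 (chr9:55538672-55546180, plus strand), which acts with Isl1 in motor neurons, followed another pattern. With F/R/C its means in CPM were 0.0761 on day 2, 0.235 on day 4, 0.343 on day 6, 0.321 on day 8 and 0.178 on day 10, with at most 12 reads in a library. Its log2 fold changes against MyoD alone were -1.07 on day 2 (SE 0.87, adjusted p = 0.508), 1.77 on day 4 (SE 0.86, adjusted p = 0.137), 1.13 on day 6 (SE 0.75, adjusted p = 0.276) and 1.45 on day 8 (SE 0.77, adjusted p = 0.15). None passed. On days 4, 6, 8 and 10 the libraries with F/R/C all lay above those of MyoD alone, a description for which no share over all genes was counted. Against MEFs, Isl2 gave 1.78 on day 8 with F/R/C (adjusted p = 0.0688) and 1.30 in bulk iMPCs (adjusted p = 0.176). These became calls without MEF replicate 3, which held all 5 Isl2 reads of the MEFs (5.96 and 5.48, adjusted p = 0.000316 and 0.000665), and the first also without replicate 1 of day 8 (2.07, adjusted p = 0.0482).

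Sorted Pax7-positive iMPCs held 63, 52 and 27 Isl2 reads, or 2.73, 2.10 and 1.40 CPM, the highest group mean. Bulk myoblasts held 12, 20 and 70 reads (0.538, 0.501 and 2.55 CPM), sorted myoblasts 9, 19 and 5 (0.318, 0.671 and 0.272 CPM), and bulk iMPCs 7, 13 and 5 (0.192, 0.366 and 0.134 CPM). On the log2 scale, Isl2 in bulk iMPCs minus bulk myoblasts was -2.35 (SE 0.65; adjusted p = 0.00591). In sorted iMPCs minus sorted myoblasts it was 2.27 (SE 0.64; adjusted p = 0.00405), the other direction. The first call rests on replicate 3 of the bulk myoblasts: without it the value was -1.15 (adjusted p = 0.198). It was also lost when only these 2 groups were fitted (adjusted p = 0.119). Sorted iMPCs also exceeded bulk iMPCs, by 3.14 (SE 0.66, adjusted p = 0.000249).

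In bulk iMPCs against bulk myoblasts, 2 of the 4 tested genes were called higher (Dbx1, Isl1) and 1 lower (Isl2), beside 10.9% and 8.70% of all genes. In sorted iMPCs against sorted myoblasts all 4 were called higher, beside 12.4% of all genes. In sorted against bulk iMPCs 2 were called higher (Lhx3, Isl2), beside 9.88%. By reads, 66.1% of Isl2 was assigned to Isl2-202, a transcript annotated as subject to nonsense-mediated decay, and 29.1% to the coding Isl2-201. All bases of Isl2-202 are shared with coding transcripts of the gene, so this division too is an estimate. Isl2-202 is 1532 bases long, against 1854 for Isl2-201. Downstream of its own start, Isl2-202 lacks a 263-base exon of Isl2-201 (chr9:55542397-55542659). The antisense gene Gm17226, which overlaps Isl2, had at most 1 read in a group.

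Mnx1 (chr5:29473034-29478470, minus strand), which is switched on in motor neurons downstream of the Isl1 and Lhx3 pair, had 9 reads in all 45 libraries together. On day 6 with F/R/C each of the 3 libraries held 1 read. The other 6 reads fell on days 8 and 10 with F/R/C and on day 10 of MyoD alone, with no more than 2 in a library. A level of 3 reads corresponds to 0.0751 to 0.190 CPM across the libraries, and Mnx1 lay below it in each one. With no count filter edgeR called Mnx1 in none of the 11 comparisons, 0 of them with an unadjusted p under 0.05.

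Read per transcript length, in the authors' TPM, the genes can be set side by side. On day 10 with F/R/C the mean levels were 14.5 TPM for Dbx1, 11.6 for Lhx3, 2.15 for Isl1 and 0.221 for Isl2. In bulk iMPCs they were 19.0 TPM for Dbx1, 4.45 for Isl1, 0.285 for Isl2 and 0.0312 for Lhx3. In sorted Pax7-positive iMPCs the means were 13.8 TPM for Dbx1, 13.6 for Isl1, 2.08 for Isl2 and 0.467 for Lhx3. The Dbx1 mean there rests on replicate 3. Its libraries ranged over 0.830 to 38.4 TPM, against 8.87 to 20.6 for Isl1 and 1.17 to 2.82 for Isl2. Lhx3 and Isl1, the pair that acts together in motor neurons, were thus highest in different groups. On days 8 and 10 with F/R/C, both were detected in all 6 libraries.

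Other genes of the neural programmes in which these factors act were examined from 4 lists (neural progenitor, pan-neuronal, motor neuron and ventral interneuron). On day 8 with F/R/C against MyoD alone, 3 of the 9 motor neuron genes tested were called higher and 2 lower, with a median log2 fold change of 0.21 against -0.06 over all genes, of which 9.20% were called higher and 9.46% lower. The 3 higher genes were Aldh1a2, which makes retinoic acid (27.6 against 3.99 CPM), Prph, a neuronal intermediate filament (2.04 against 0.258 CPM), and Onecut2, a homeobox gene (4.08 against 0.817 CPM). The 2 lower ones were Chodl (0.248 against 14.3 CPM), which is also a marker of muscle progenitors, and Slc5a7, the choline transporter (1.15 against 33.4 CPM). Chat, the enzyme that makes acetylcholine, had at most 1 read in any library of the 9 groups examined (MEFs, days 8 and 10, iMPCs and myoblasts), and its vesicular transporter Slc18a3 had none. The transcription factor Neurog2 and the motor neuron progenitor factor Olig2 had at most 2 reads a library.

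Of 12 pan-neuronal genes tested on day 8, 4 were called higher with F/R/C and none lower, with a median of 0.81, beside 9.20% of all genes called higher. They were Ina, Map2, Snap25 and Syp, and Ina was at 1.48 CPM with F/R/C against 0.210 CPM with MyoD alone. Of 5 neural progenitor genes 1 was higher, Msi1, an RNA-binding protein (17.9 against 2.64 CPM). Of 7 ventral interneuron genes 1 was higher and 1 lower. Foxd3, a forkhead factor of neural crest and of an interneuron class, had 671 reads on day 8 with F/R/C against 1 with MyoD alone, and Sim1 fell from 2.59 to 0.0873 CPM. Sox14 had no read in the 9 groups, and Evx1 and Dbx2, which mark or share the Dbx1 lineage, had at most 3 in a library. The summed CPM of the ventral interneuron list ranged over 39.0 to 66.1 with F/R/C and 37.3 to 46.4 with MyoD alone on day 8, and that of the pan-neuronal list over 246 to 277 and 252 to 416. Nes, a filament gene of neural and myogenic progenitors alike, dominates the neural progenitor list in all treated groups and had a mean of 1296 CPM on day 8 of F/R/C against 1069 in MyoD alone. Of the 58 genes of the 4 lists, 21 had at most 10 reads in every one of the 45 libraries and 3 had none, while the rest, among them Map2, Msi1, Foxd3, Onecut2 and Aldh1a2, exceeded 10 reads in at least 1 library.

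In bulk iMPCs against MEFs, the motor neuron list had 4 of 9 called higher (Aldh1a2, Onecut2, Chodl and Prph) and 1 lower (Slit3), and the pan-neuronal list 4 higher and 3 lower of 12. Chodl (0.303 against 0.0211 CPM) and Prph (0.745 against 0.109 CPM) had MEF means below the level of 3 reads, 0.154 CPM. Chodl is also counted in the muscle progenitor list. Dcx, a microtubule protein of young neurons, rose from 0.0603 to 84.2 CPM, but it was also at 181 CPM on day 8 of MyoD alone. The neural progenitor list had 3 of 5 higher (Nes, Msi1 and Irx3), and the ventral interneuron list 1 higher (Foxd3) and 2 lower (Gata3 and Evx2) of 7. The medians were 1.66, 1.26, 2.85 and -0.96, against 0.08 over all genes, of which 19.2% were called higher and 35.5% in either direction. In sorted iMPCs against sorted myoblasts, 7 of 9 motor neuron genes were higher and 1 lower (median 4.56). Of 12 pan-neuronal genes, 7 were higher and none lower (median 2.07). Over all genes, 12.4% were called higher there and 30.0% in either direction, with a median of -0.07. The neural progenitor list had 2 higher and 1 lower of 5 (median 1.76), and the ventral interneuron list 1 higher and 1 lower of 7 (median -0.38). A list of 11 heart genes, described below, had 6 higher and 1 lower (median 3.01).

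**Figure D4:**
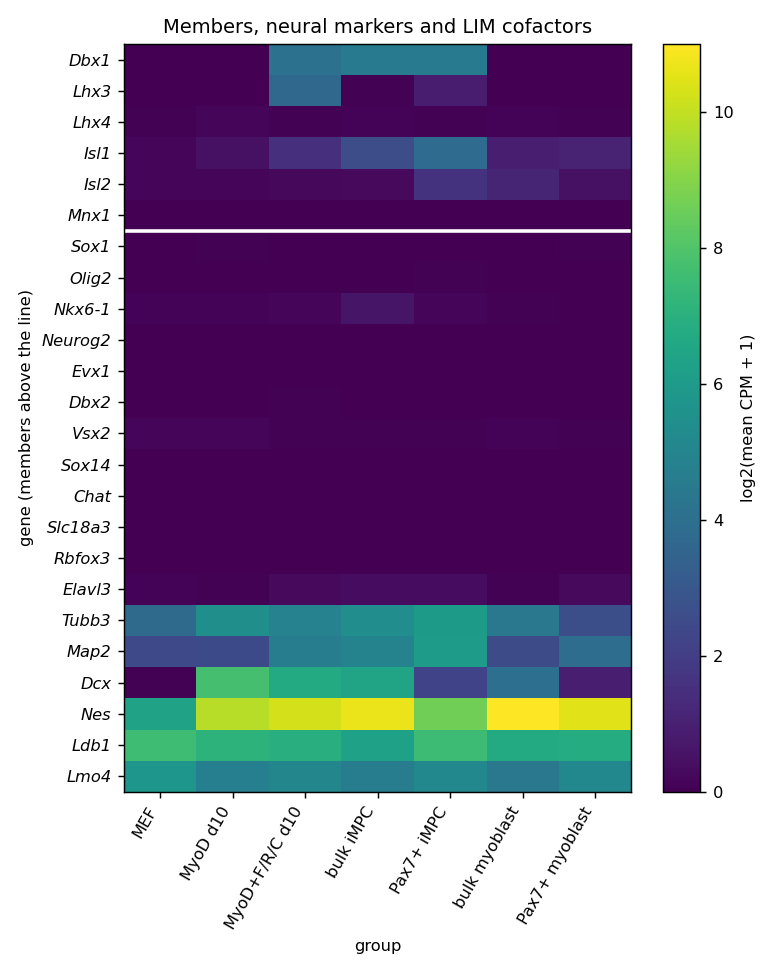
Mean CPM, as log2(mean CPM + 1), of the 6 genes (above the line), of neural marker genes and of LIM cofactors (rows) in 7 groups (columns). Chat and Slc18a3 are at or near 0 in all 7 groups, whereas Ldb1 is expressed in all of them.

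Partners of the LIM-homeodomain proteins were present in every group. Ldb1, the adaptor that joins Isl1 and Lhx3, averaged 189 ± 21.6 CPM in MEFs, 115 ± 11.7 CPM with F/R/C on day 8, and 76.9 ± 6.24 CPM in bulk iMPCs (SD, n = 3 each). Of 9 cofactor and LIM-only genes tested on day 8, 1 was called higher with F/R/C, Ldb2 (2.32 against 0.543 CPM), and none lower. Over all genes, 9.20% were called higher and 9.46% lower. In bulk iMPCs against MEFs 4 of the 9 cofactor and LIM-only genes were lower (Ldb1, Lmo4, Ssbp4 and Ldb2) and 1 higher (Lmo2), where 35.5% of all genes were called in either direction. Among 5 other LIM homeobox genes tested, none was higher on day 8 and 1 was lower, Lhx9 (0.924 against 15.5 CPM). In bulk iMPCs 2 were lower than in MEFs, Lhx8 and Lhx9.

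The same factors act outside the nervous system, and lists for those tissues were read in the same way on day 8 with F/R/C against MyoD alone. Over all genes, 9.20% were called higher there and 9.46% lower. Of 4 pituitary genes none was higher and 1 was lower (Prl). Of 5 islet genes 1 was higher (Chga, 2.89 against 0.260 CPM), and of 11 genes of the second heart field and heart 1 was higher (Nppa, 0.547 against 0.0176 CPM). Of the muscle progenitor genes, Pax7, Msc, Heyl and Myf5 were higher and Chodl was lower, of 12 muscle differentiation genes 0 were called or had an unadjusted p under 0.05 in edgeR, and of 12 fibroblast genes 1 was higher (Lum) and 1 lower (Fn1). In bulk iMPCs against MEFs, the islet genes Mafa and Chga were higher, and of 11 heart genes 3 were higher and 2 lower. In that comparison 8 of 12 muscle progenitor and all 12 muscle differentiation genes were higher, and 6 of 12 fibroblast genes lower. Of all genes, 19.2% were called higher there and 35.5% in either direction.

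None of the nearest protein-coding genes on either side of the members was called higher with F/R/C on day 8, beside 9.20% of all genes. Htatip2, Nacc2, Scaper and Qsox1 were called lower, beside 9.46% of all genes. The neighbours are too few for these numbers to be compared with those shares. Nav2, 21409 bases from Dbx1, had 328 CPM in the F/R/C libraries of day 8 against 286 in MyoD alone (log2 fold change 0.20, adjusted p = 0.767), and Htatip2 on the other side was lower with F/R/C (-1.46, adjusted p = 0.00835). Nav2 was also 4.55 higher on the log2 scale on day 8 of MyoD alone than in MEFs (adjusted p = 4.69e-08), where Dbx1 had no read. Qsox2 lies 348 bases from Lhx3 and gave 0.22 on day 8 (adjusted p = 0.225), while Nacc2 was lower with F/R/C (-1.15, adjusted p = 0.00315). The neighbours of Isl1 lie far away, Parp8 at 545131 and Itga1 at 1196317 bases, and gave 0.04 and 0.57 (adjusted p = 0.946 and 0.428). Beside Isl2, Scaper was lower (11.4 ± 1.55 against 45.8 ± 31.6 CPM, SD, n = 3 each; adjusted p = 0.000317) and Etfa gave 0.21 (adjusted p = 0.149). Beside Lhx4, Qsox1 was lower (-1.40, adjusted p = 0.00851) and Acbd6 gave -0.03. Beside Mnx1, Nom1 gave 0.02 and Ube3c 0.03.

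The 3 genes whose profile over the 15 group means of log2 CPM was most like that of each member were picked by Pearson's r, which is a description of 15 groups that share treatments. For Dbx1 they were Stag2 (r = 0.961), a cohesin subunit, Rasgef1c (0.956) and Tmem233 (0.955). For Lhx3 they were Cpm, a carboxypeptidase (0.916), Chrnb4, a nicotinic acetylcholine receptor subunit (0.905), and Cartpt, a neuropeptide precursor (0.902). With F/R/C, Chrnb4 averaged 2.54 CPM (day 8) and 5.34 CPM (day 10), against 0.236 and 0.202 with MyoD alone. Cartpt averaged 1.75 against 0.0168 CPM on day 8 and ranged over 0.146 to 0.715 CPM on day 10 of F/R/C, where MyoD alone had no read. For Isl1 they were Pygo1 (0.966), a factor of Wnt signalling, Mrps30 (0.960) and Raver2 (0.955). For Isl2 they were Elovl4 (0.928), a fatty acid elongase, Larp7 (0.921) and Rpgr (0.908). Over the 45 single libraries only Rasgef1c and Cpm were still among the first 3 for their gene, with r of 0.896 and 0.795.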

How the data were processed

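Libraries were stranded, poly-A selected and read from a single end, per the labels' protocols, which also state that samples were used only above a 28S/18S ratio of 1.9. The submitters' processing notes name Trimmomatic 0.36, kallisto 0.44 and GRCm38.p6; the transcript release and the use of strand in counting are not given in the sources used here. Per the file headers, the deposited files give each transcript's length and effective length in bases, its estimated counts (the authors' expected counts, not normalised, with reads that fit several transcripts divided between them) and its TPM. TPM, as deposited, divides by transcript length and sums to the same total in every library, so it keeps no depth.

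Of 121843 transcripts, 121104 matched GENCODE M21 (GRCm38). Estimated counts were summed per gene and rounded; of the members, only Lhx4 had counts that were not whole, in 6 libraries. CPM are reads divided by the TMM-scaled library size. All 45 libraries entered 1 edgeR 4.0.16 quasi-likelihood fit in R 4.3.3 (filterByExpr by group with a minimum count of 10, TMM, a coefficient per group, no replicate block, 30 residual degrees of freedom), which tested 17325 genes. A fold against a group without reads is a lower bound at 3 reads per library. Statements that the libraries of 2 groups do not overlap are descriptions, because the share of all genes that separate so was not counted. Floors and intervals describe counting error alone, because PCR copies were not marked by molecular identifiers. In simulated counts for the day 8 comparison, 200 genes were altered by a factor of 4 before the count filter, which left 16721 genes. Of 125 calls, 116 were altered genes, whatever the direction called, and 9 were not. Apart from the alteration, each simulated gene had the same mean level in every group. Genes absent from some groups, such as Dbx1 and Lhx3, were therefore not imitated.

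The members and gene lists were chosen with earlier results of these data known. The text names the 6 members, their nearest protein-coding neighbours, the 3 genes with the most similar profile, and from each list up to 4 called genes with the lowest adjusted p and genes a result turns on. Some listed genes, and counts that rest on them, are not reported here. Same-numbered libraries were taken to deviate together where the correlation was above 0.1 in every pair. This held with F/R/C against MyoD alone on days 2, 4 and 6 and between days 8 and 2 of F/R/C. In each other comparison at least 1 pair did not exceed 0.1. With F/R/C against MyoD alone, replicates 1, 2 and 3 gave 0.234, 0.227 and 0.0791 on day 8. On day 10 they gave 0.264, 0.246 and 0.0617. The alternatives were other normalisation, DESeq2 1.42.0, no count filter, only the groups compared, a replicate block, no minimum fold and leaving out each library. Sequences come from RefSeq (GRCm38.p6), and a motif was searched on both strands.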

Additional observations from a re-analysis of the deposited data

Results flagged for a closer look

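Isl2 differed between iMPCs and myoblasts in opposite directions in bulk and in sorted cells: all 3 bulk iMPC libraries lay below all 3 bulk myoblast libraries, and all 3 sorted iMPC libraries lay above all 3 sorted myoblast libraries. The difference of these differences, tested in the same edgeR fit after the values had been seen, was 4.62 on the log2 scale (SE 0.92, adjusted p = 0.000306), in a contrast that called 24.1% of all genes. Isl1 was not called in it (adjusted p = 0.431); Lhx3 has no reads in either myoblast group and could not be called, and Dbx1 has none in bulk myoblasts, which left an SE of 3.21. The bulk value alone, -2.35, was -1.15 (adjusted p = 0.198) without replicate 3 of the bulk myoblasts and was lost when only those 2 groups were fitted (adjusted p = 0.119). The difference of the differences ranged from 3.43 to 5.17 when each of the 12 libraries was left out in turn, with adjusted p up to 0.00418, and was 4.65 (adjusted p = 0.0271) with only the 4 groups fitted; these recalculations were chosen after seeing the data.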

How the results depend on the processing

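The number of members called, of 4 tested in the main fit, kept within 1.5 times in 116 of 132 recalculations. With numbers this small the limit is loose: a move from 3 to 2 is within it. Days 2 and 4, with 12 recalculations each, stayed at 0, but Dbx1 and Lhx3 could not be called there. With DESeq2 the number of members called was 1 in place of 3 on day 8 and for day 8 against day 2, and 1 in place of 2 for sorted against bulk iMPCs, where it was also 1 without the count filter (Lhx3 adjusted p = 0.0505). Without that filter Isl1 was also lost for day 8 against day 2 (adjusted p = 0.0618). With only the groups compared it was 0 on day 6, where Isl1 failed the filter, and 1 for bulk iMPCs against bulk myoblasts (adjusted p = 0.119 for Isl2 and 0.0501 for Isl1); there Isl1 was called in sorted against bulk iMPCs (adjusted p = 0.03). Leaving out 1 library gave 0 to 1 on day 6, 1 to 3 on day 8, 1 to 3 for day 8 against day 2, 0 to 2 for MyoD alone against MEFs and 1 to 2 for sorted against bulk iMPCs.

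Directions turned only in values that had not been called, all on leaving out 1 library: Isl2 in MyoD alone against MEFs (-0.34 to 4.45), Lhx3 on day 6 (-2.06 to 6.42) and Dbx1 in sorted against bulk iMPCs (-3.26 to 0.97). A replicate block changed 1 member call, Isl1 in sorted against bulk iMPCs (1.48, adjusted p = 0.0423), where the numbers share no checked pairing.

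Without the minimum fold, 1.53 to 1.78 times as many genes were called. With only the groups compared, 1420 genes were called on day 2 in place of 854, 1265 in bulk iMPCs against bulk myoblasts in place of 3396 and 3424 in the sorted cells in place of 5199. Leaving out 1 library moved the count by more than 1.5 times on day 2 (lowest 423), for day 8 against day 2 (lowest 827 in place of 1693) and for MyoD alone against MEFs (lowest 2249 in place of 3605). The causes of these changes were not tested. Low read numbers limit what can be said of Lhx4 and Mnx1, which failed the count filter and were called in no comparison without it. The same holds for Isl2, which held at most 12 reads a library in the time course. The parts of depth and of low expression in these numbers were not tested.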
